A study of Mus musculus with 8 samples.

Results

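Classical cadherins are the calcium-dependent adhesion molecules of adherens junctions, and Epcam is an epithelial adhesion molecule that mouse embryonic stem cells (mESCs) also carry. The genes described here are 9 cadherins, Cdh1, Cdh2, Cdh3, Cdh4, Cdh5, Cdh6, Cdh8, Cdh11 and Cdh20, together with Epcam. They were chosen by symbol and make up 10 of the 24849 genes listed for each library. Poly(A)+ RNA was sequenced from the MPI-II mESC line (source 129S2/SvPas), as wild type (WT) and as Pcgf5-/- cells in which TALENs cut the second exon of Pcgf5, a Polycomb group gene. Cells of both genotypes were grown on feeder-coated plates with serum, leukemia inhibitory factor and the 2i inhibitors CHIR99021 and PD0325901, and were sampled either in this state (day 0) or after 6 days in N2B27 medium, which drives mESCs towards a neural fate (day 6). Each of the 4 groups, WT and Pcgf5-/- at day 0 and at day 6, held 2 biological replicates, so the 8 libraries came from cultured cells of a single line. Knockout cells were expanded from picked colonies after drug selection, and which colony each library came from is not stated in the labels, so an effect of the deletion and a feature of a clone cannot be told apart.

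A cadherin extends repeated domains outside the cell that bind the same cadherin on the neighbouring cell, and its tail holds p120-catenin and β-catenin, through which α-catenin reaches the actin cytoskeleton. Naive mESCs adhere through E-cadherin (Cdh1). When the neural plate forms, cells lower E-cadherin and raise N-cadherin (Cdh2), which is the textbook cadherin switch, while type II cadherins such as Cdh6, Cdh8, Cdh11 and Cdh20 mark subdivisions of the neural tube and the neural crest. The question addressed here was how far this switch had gone at day 6 in each genotype, and what the other members did.

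Levels are FPKM, fragment counts that the authors scaled by transcript length and by the mapped fragments of the library, so that genes can be compared within a library. Tests used limma on log2(FPKM + 1) across 13214 genes, those whose mean FPKM exceeded 1 in some group, with p-values adjusted over all of them by the Benjamini-Hochberg method and 0.05 as the threshold. A difference below is on that log2 scale and is given with its standard error (SE). Of the 10 members, 8 passed this filter and Cdh5 and Cdh8 did not. Cdh4, Cdh6 and Cdh20 passed it only through their day 6 levels, so a rise with day was built into their selection. The same holds for any gene of the lists below that passed only through day 6, such as Esrp1. Cdh20 passed only through WT at day 6 (mean 1.04 FPKM, against 0.832 in Pcgf5-/- cells). Of all tested genes, 9.57% were higher and 7.05% lower in Pcgf5-/- cells at day 6 past the threshold, and 0.333% differed at day 0. With day, 34.2% rose and 16.2% fell in WT, and 21.9% rose and 10.4% fell in Pcgf5-/- cells. Counts for lists of genes below are to be read beside these shares.

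The labels were checked first. Pcgf5 stood at 5.18 and 3.63 FPKM in WT and at 1.28 and 1.84 in Pcgf5-/- cells at day 0, and stood at 9.16 and 5.06 against 0.669 and 0.457 at day 6. The genotypes did not overlap on either day, and the difference passed the test at day 6 (-2.33, adjusted p = 0.00421) but not at day 0 (-1.07, adjusted p = 0.105). The 10 mESC markers summed to between 2232 and 2462 FPKM in the day 0 libraries, and the 10 neural progenitor markers to between 20.3 and 28.3. At day 6 the mESC markers summed to 422 and 180 FPKM in WT and to 1199 and 1128 in Pcgf5-/- cells, and the neural progenitor markers to 467 and 475 against 172 and 184. At that day 9 of 10 mESC markers were higher and 10 of 10 neural progenitor markers were lower in Pcgf5-/- cells past the threshold. The libraries are bulk RNA, in which fewer cells of a type and less RNA per cell cannot be told apart. The Pcgf5-/- day 0 replicate 2 library stood apart: 12 fibroblast markers, which the feeder layer would carry, summed to 857 FPKM in it, against 235 to 370 in the other day 0 libraries.

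**Figure D1:**
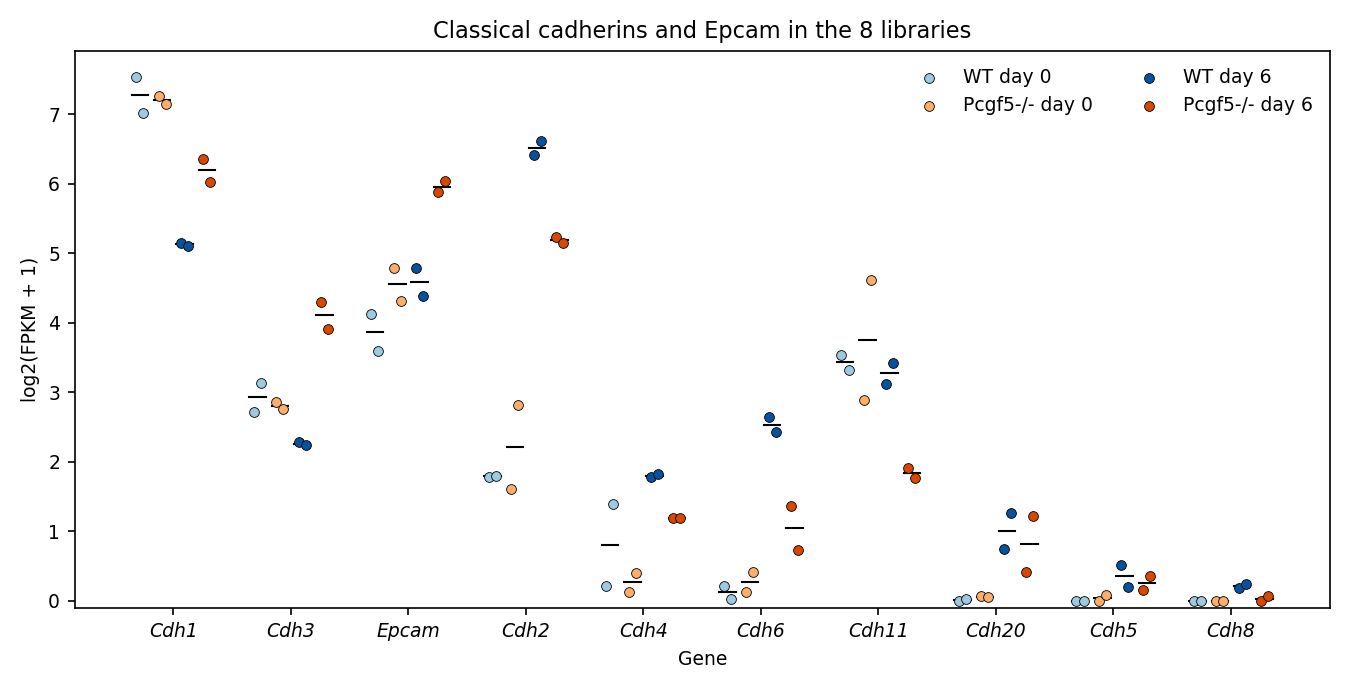
Level of each member as log2(FPKM + 1) on the vertical axis, with a point for each of the 8 libraries and a bar at the mean of each group of 2. Cdh1 was the highest member in all day 0 libraries, Cdh2 was the highest in both WT day 6 libraries, and Cdh5 and Cdh8 stayed below 1 FPKM throughout.

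Cdh1 and Cdh2 changed places in WT cells and did not in Pcgf5-/- cells. Cdh1 (E-cadherin) lies on chromosome 8, chr8:109127268-109194146 in build NCBIM37 (mm9), the build of all gene positions given here. It read 185 and 128 FPKM in WT and 153 and 140 in Pcgf5-/- cells at day 0, and 34.7 and 33.3 against 81.2 and 64.3 at day 6. Day 6 libraries were below all day 0 libraries in both genotypes, and at day 6 the Pcgf5-/- libraries lay above those of WT, with a mean 2.14 times as high. Cdh1 fell with day by 2.15 (SE 0.19, adjusted p = 6.63e-05) in WT and by 1.01 (SE 0.19, adjusted p = 0.00537) in Pcgf5-/- cells. At day 6 it was higher in Pcgf5-/- cells by 1.07 (SE 0.19, adjusted p = 0.0108). This call was lost without WT day 6 replicate 2 (adjusted p = 0.0624) or without Pcgf5-/- day 6 replicate 1 (adjusted p = 0.0694). Between the days the genotype effect differed by 1.14 (SE 0.26), which missed the threshold (adjusted p = 0.0569) and passed it with every library centred on its median (1.32, adjusted p = 0.0477).

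Cdh2 (N-cadherin, chr18:16747386-16967558) moved the other way. Its FPKM was 2.46 and 2.48 in WT and 2.05 and 6.09 in Pcgf5-/- cells at day 0. By day 6 it had reached 84.5 and 97.5 in WT and 36.8 and 34.6 in Pcgf5-/- cells. All day 6 libraries exceeded all day 0 libraries, and the WT libraries of day 6 held the 2 highest values, with a mean 2.55 times that of Pcgf5-/-. The rise with day was 4.73 (SE 0.33, adjusted p = 2.46e-05) in WT and 2.98 (SE 0.33, adjusted p = 0.000652) in Pcgf5-/- cells. At day 6 the genotypes differed by -1.32 (SE 0.33, adjusted p = 0.0319), and with any of the 4 day 6 libraries left out that call was lost (adjusted p between 0.0853 and 0.155), as it was without either WT day 0 library (0.0506 and 0.0503), with a pseudocount of 0.1 (0.0586) and without a filter (0.0825). The difference between the days, -1.75, missed the threshold (adjusted p = 0.0792) and passed it without Pcgf5-/- day 0 replicate 1 (-2.36, adjusted p = 0.0281) or with a pseudocount of 5 (-1.48, adjusted p = 0.0340). The value of 6.09 at day 0 belonged to the library with the high fibroblast markers, whose part in it was not tested.

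Set against each other within a library, Cdh2 was 0.0133 and 0.0193 of the Cdh1 level in WT and 0.0134 and 0.0434 of it in Pcgf5-/- cells at day 0. By day 6 Cdh2 was 2.44 and 2.93 times Cdh1 in WT. In Pcgf5-/- cells it was 0.453 and 0.537 times Cdh1, so that Cdh1 was still the more abundant transcript in both libraries. The order of Cdh1 and Cdh2 was thus opposite in the genotypes at day 6. The log2 ratio of Cdh2 to Cdh1 at day 6, Pcgf5-/- minus WT, was -2.44, and it lay between -2.57 and -2.30 with a day 6 library left out.

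The 9 cadherins together summed to similar totals at day 6, 140 and 153 FPKM in WT and 143 and 119 in Pcgf5-/- cells, against 149 to 204 at day 0. What differed was the make-up. Cdh1 held 79.5% to 91.1% of the sum at day 0, 24.8% and 21.8% in WT at day 6, and 56.9% and 54.1% in Pcgf5-/- cells at day 6. Cdh2 held 60.5% and 63.8% of the sum in the WT day 6 libraries and 25.8% and 29.0% in those of Pcgf5-/- cells. Cdh3 was the next largest in Pcgf5-/- cells at day 6, with 13.1% and 11.9%, against 2.78% and 2.44% in WT. These shares describe the libraries and were not tested, since the members were chosen together.

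**Figure D2:**
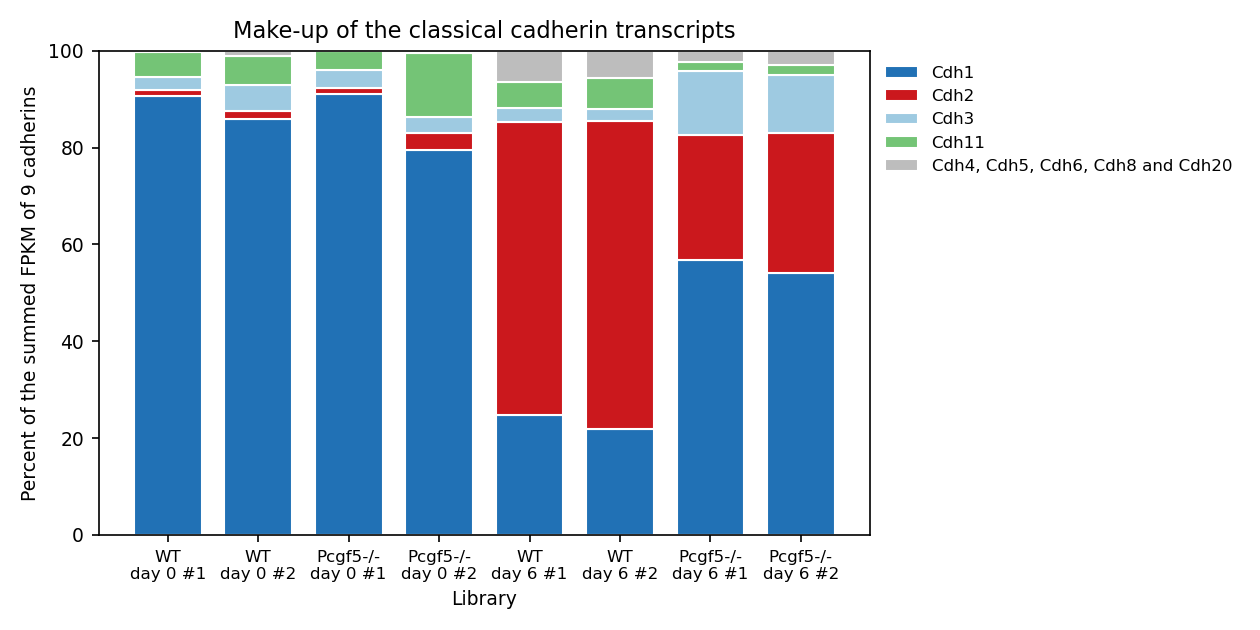
Percent of the summed FPKM of the 9 cadherins (vertical axis) taken by each gene in each of the 8 libraries (bars), with the 5 least abundant cadherins joined in grey. Cdh1 took most of the bar at day 0, Cdh2 took 60.5% and 63.8% in WT at day 6, and Cdh1 and Cdh3 took more of the Pcgf5-/- than of the WT bars at day 6.

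Cdh3 (P-cadherin, chr8:109034752-109080811), a classical cadherin of basal epithelia and placenta, is the neighbour of Cdh1, with a gap of 46456 bp and 1 listed gene between them. It went down with day in WT and up in Pcgf5-/- cells. Day 0 values were 5.60 and 7.79 FPKM in WT and 6.24 and 5.77 in Pcgf5-/- cells, and those of day 6 were 3.88 and 3.73 in WT and 18.8 and 14.1 in Pcgf5-/- cells. The Pcgf5-/- day 6 libraries exceeded every other library, and the WT day 6 libraries were the lowest of all. The day effect was -0.67 (SE 0.21, adjusted p = 0.0271) in WT and 1.30 (SE 0.21, adjusted p = 0.00289) in Pcgf5-/- cells. At day 6 Cdh3 was higher in Pcgf5-/- cells by 1.85 (SE 0.21, adjusted p = 0.00393), a 4.32-fold ratio of the mean FPKM, and this call held with each library left out in turn. The fall in WT did not pass without WT day 0 replicate 2 (-0.46, adjusted p = 0.150), WT day 6 replicate 1 (0.0855) or WT day 6 replicate 2 (0.112).

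The genotype effect on Cdh3 differed between the days by 1.97 (SE 0.29, adjusted p = 0.0269). This test was lost without WT day 0 replicate 2 (adjusted p = 0.102), Pcgf5-/- day 0 replicate 2 (0.0953), WT day 6 replicate 2 (0.0709), Pcgf5-/- day 6 replicate 1 (0.104) or Pcgf5-/- day 6 replicate 2 (0.0640), and without a filter (0.0563), with the difference between 1.76 and 2.18 in all of the 8 leave-outs. The ratio of Cdh3 to Cdh1 was 0.0303 and 0.0608 in WT and 0.0409 and 0.0411 in Pcgf5-/- cells at day 0, and it rose to 0.112 in both WT and to 0.231 and 0.220 in both Pcgf5-/- libraries of day 6. The neighbours therefore shared a higher level in Pcgf5-/- cells at day 6 but not a direction over time: with day, Cdh1 fell in Pcgf5-/- cells while Cdh3 rose.

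Epcam (chr17:88035319-88050467) encodes an adhesion glycoprotein outside the cadherin family, which proteases cut at the membrane. It was the only member whose Pcgf5-/- libraries exceeded those of WT on both days among the members with a level over 1 FPKM in every library. Its FPKM was 16.6 and 11.1 in WT and 26.6 and 19.0 in Pcgf5-/- cells at day 0, and 26.7 and 20.0 in WT and 58.2 and 64.6 in Pcgf5-/- cells at day 6. Epcam rose with day in both genotypes, by 0.72 (SE 0.23, adjusted p = 0.0317) in WT and by 1.41 (SE 0.23, adjusted p = 0.00346) in Pcgf5-/- cells. The WT rise was not past the threshold without WT day 0 replicate 2 (0.46, adjusted p = 0.185) or WT day 6 replicate 1 (0.52, adjusted p = 0.170), nor with quantile normalization (0.56, adjusted p = 0.0832), without a filter (0.0699) or with only the WT libraries fitted (0.05003), nor after centring every library on its median (0.36, adjusted p = 0.261), a scaling that shifted the median WT day effect of all genes from 0.22 to -0.15.

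At day 6 Epcam was higher in Pcgf5-/- cells by 1.37 (SE 0.23, adjusted p = 0.0103), which is 2.63 times the WT mean. The call was lost without WT day 6 replicate 2 (adjusted p = 0.0631), Pcgf5-/- day 6 replicate 1 (0.0571) or Pcgf5-/- day 6 replicate 2 (0.0515). The day 0 difference was 0.69 (SE 0.23) with an unadjusted p of 0.0185 and an adjusted p of 0.185. The difference between the days, 0.69, was not past the threshold (adjusted p = 0.259), so a larger effect at day 6 than at day 0 was not shown. In the Pcgf5-/- day 6 libraries Epcam reached 0.717 and 1.00 times the level of Cdh1. In the WT day 6 libraries it reached 0.770 and 0.599 times, so the genotypes overlapped in this ratio. Over the day 0 libraries of both genotypes the ratio was 0.0869 to 0.174.

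The promoter is shown for Epcam and for Cdh6, the members with a RefSeq promoter entry whose day 6 levels differed between the genotypes in opposite directions. Each run is the 250 bases before the RefSeq transcription start (build GRCm38.p6), with the start to the right of the last base. Capitals mark the E-box CAGGTG or, on the other strand, CACCTG, the motif that Snail and ZEB repressors read.
Epcam, chr17:87635729-87635978, plus strand: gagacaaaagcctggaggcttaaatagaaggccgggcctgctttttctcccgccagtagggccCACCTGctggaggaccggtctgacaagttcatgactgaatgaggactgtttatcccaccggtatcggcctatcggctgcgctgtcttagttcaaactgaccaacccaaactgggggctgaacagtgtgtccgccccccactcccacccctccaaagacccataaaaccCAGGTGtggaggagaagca
Cdh6, chr15:13173676-13173925, minus strand: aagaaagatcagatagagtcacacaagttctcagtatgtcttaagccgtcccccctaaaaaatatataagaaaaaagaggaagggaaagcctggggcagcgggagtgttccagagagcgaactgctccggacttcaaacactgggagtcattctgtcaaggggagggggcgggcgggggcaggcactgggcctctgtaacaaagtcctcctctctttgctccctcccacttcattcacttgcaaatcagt
The Epcam window held 2 matches, which begin 187 and 19 bases before the start, and the Cdh6 window held none. Of 32851 promoter windows of this length, 17.22% held at least 1 match and 2.06% held 2 or more. The windows of Cdh8 and Cdh20 held none either, and those of Cdh1, Cdh2, Cdh3, Cdh4, Cdh5 and Cdh11 were not analysed here. A match is a run of letters, and binding was not measured in these libraries.

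Of the low cadherins that passed the filter through day 6, Cdh6 (chr15:12963955-13103394), a type II cadherin of the neural folds and early crest, was the member called between the genotypes. It was at 0.164 and 0.0230 FPKM in WT and 0.0976 and 0.332 in Pcgf5-/- cells at day 0, and at 5.23 and 4.39 in WT and 1.56 and 0.661 in Pcgf5-/- cells at day 6. Every day 6 library exceeded every day 0 library, and those of WT stood far above those of Pcgf5-/-. At day 6 Cdh6 was lower in Pcgf5-/- cells (-1.49, SE 0.24, adjusted p = 0.00915), and this call held with each library left out. The rise with day was 2.41 (SE 0.24, adjusted p = 0.000139) in WT and 0.77 (SE 0.24, adjusted p = 0.0422) in Pcgf5-/- cells. The latter was not past the threshold without either WT day 0 library (0.0576 for both), either Pcgf5-/- day 0 library (0.189 and 0.0683) or Pcgf5-/- day 6 replicate 1 (0.210), nor with quantile normalization (0.48, adjusted p = 0.167), median centring (0.59, adjusted p = 0.101), a pseudocount of 5 (0.23, adjusted p = 0.0854), no filter (0.0708) or only the Pcgf5-/- libraries fitted (0.0595). The genotype effect differed between the days by -1.64 (SE 0.34, adjusted p = 0.0484), and that test was lost with any of the 8 libraries left out (adjusted p between 0.0582 and 0.152), with a pseudocount of 0.1 (-2.82, adjusted p = 0.110), without a filter (0.0939) or with median centring (0.0580).

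Cdh4 (R-cadherin, chr2:179177183-179634080), a cadherin of retina and brain, was at 0.163 and 1.64 FPKM in WT and 0.0971 and 0.324 in Pcgf5-/- cells at day 0. At day 6 its FPKM was 2.43 and 2.53 in WT and 1.28 and 1.28 in Pcgf5-/- cells. The WT values of day 6 were above those of Pcgf5-/-, and the WT day 0 replicate 2 value of 1.64 exceeded both Pcgf5-/- values of day 6. The difference at day 6 was -0.61 (SE 0.34, adjusted p = 0.257). The day effect was 0.99 (SE 0.34, adjusted p = 0.0398) in WT and 0.92 (SE 0.34, adjusted p = 0.0700) in Pcgf5-/- cells. Without WT day 0 replicate 1 the WT value was 0.40 (adjusted p = 0.188), and without either WT day 6 library (0.101 and 0.123), Pcgf5-/- day 0 replicate 2 (0.0532) or either Pcgf5-/- day 6 library (0.0601 and 0.0599) the WT call was lost as well. It was lost, too, with quantile normalization (0.59, adjusted p = 0.226), median centring (0.63, adjusted p = 0.137), a pseudocount of 0.1 (0.0706), no filter (0.0860) or only the WT libraries fitted (0.0815). The Pcgf5-/- value passed the threshold without either WT day 0 library (0.0108 and 0.0106) and with only the Pcgf5-/- libraries fitted (0.0128).

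Cdh20 (chr1:106665396-106892058), a type II cadherin of the neural plate, was at or below 0.0507 FPKM in all day 0 libraries. It was at 0.675 and 1.40 in WT and at 0.330 and 1.33 in Pcgf5-/- cells at day 6, so that the genotypes overlapped and their difference of -0.19 (SE 0.28) was below its own standard error (adjusted p = 0.695). Its day effect was 0.99 (SE 0.28, adjusted p = 0.0192) in WT and 0.76 (SE 0.28, adjusted p = 0.0729) in Pcgf5-/- cells. Cdh20 entered the test only through the WT day 6 group, so neither its WT day effect nor its genotype comparison is free of that selection. Without WT day 6 replicate 2 it failed the filter, so that leave-out could not be made for it. The WT call was lost without either WT day 0 library (0.0740 and 0.0685) or with median centring (0.63, adjusted p = 0.0978). The Pcgf5-/- value passed without Pcgf5-/- day 6 replicate 1 (1.16, adjusted p = 0.0235) or with a pseudocount of 0.1 (2.46, adjusted p = 0.0226). At day 6 Cdh6 differed between the genotypes past the threshold and Cdh20 did not; whether their genotype effects differ from each other was not tested.

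Cdh8 (chr8:101548371-101940371), a type II cadherin of forebrain and hindbrain territories, was listed at 0 in all 4 day 0 libraries. At day 6 it was at 0.139 and 0.183 FPKM in WT and at 0 and 0.0452 in Pcgf5-/- cells. These levels lie below the filter. Without it, over 19792 genes, limma gave -0.18 (SE 0.03, adjusted p = 0.0305) between the genotypes at day 6 and 0.22 (adjusted p = 0.00437) for the day effect in WT, a fit in which groups listed at 0 add no spread. Cdh5 (VE-cadherin, chr8:106625525-106668402), the cadherin of endothelial junctions, was at 0 in both WT and in 1 of the 2 Pcgf5-/- libraries at day 0, with 0.0657 in the other, and at 0.423 and 0.153 in WT and 0.117 and 0.284 in Pcgf5-/- cells at day 6. The genotypes overlapped at day 6. Of 10 endothelial markers, Tie1, Emcn and Erg stayed at or below 0.243 FPKM in every library, and the list summed to between 10.7 and 33.6 FPKM, mostly Egfl7 and Eng, which were at 9.89 to 17.6 FPKM in the mESCs of day 0. Of 4 tested genes, Egfl7 (0.88, adjusted p = 0.0229) and Eng (1.35, adjusted p = 0.0179) were higher in Pcgf5-/- cells at day 6. Tek (0.78, adjusted p = 0.0756) and Kdr (0.185, adjusted p = 0.616) were higher in direction but not past the threshold. Tek reached 3.06 FPKM and Kdr 1.35 in their highest libraries.

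Cdh11 (chr8:105156895-105309011), a type II cadherin of mesenchyme and migrating crest, had the widest standard error of the tested members. Its FPKM was 10.7 and 8.98 in WT and 6.44 and 23.5 in Pcgf5-/- cells at day 0, and 7.72 and 9.72 in WT and 2.75 and 2.39 in Pcgf5-/- cells at day 6. WT day 0 and day 6 libraries overlapped, whereas the Pcgf5-/- day 6 libraries were the lowest of all. The day effect was -0.16 (SE 0.46, adjusted p = 0.793) in WT and -1.92 (SE 0.46, adjusted p = 0.0155) in Pcgf5-/- cells. The Pcgf5-/- fall was not past the threshold without Pcgf5-/- day 6 replicate 1 (adjusted p = 0.0609) or replicate 2 (0.0783), nor without a filter (0.0521), and it was -1.06 without Pcgf5-/- day 0 replicate 2 and -2.78 without Pcgf5-/- day 0 replicate 1, both past it. At day 6 the genotype difference was -1.44 (SE 0.46) with an adjusted p of 0.0674. It passed when only the day 6 libraries were fitted (adjusted p = 0.0280) and without Pcgf5-/- day 0 replicate 1 (0.00887) or replicate 2 (0.0110), settings that take the gap between these replicates out of the shared spread. Between the days the genotype effect differed by -1.76 (SE 0.65, adjusted p = 0.161), which passed without Pcgf5-/- day 0 replicate 1 (-2.62, adjusted p = 0.0345).

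Fibroblast markers are given beside Cdh11 and Cdh2. Their sum was 370 and 268 FPKM in WT and 235 and 857 in Pcgf5-/- cells at day 0, and 60.8 and 149 in WT and 33.9 and 37.2 in Pcgf5-/- cells at day 6. Within each group of day 0 and within the WT group of day 6, the replicate with the higher sum also had the higher Cdh11, and in the Pcgf5-/- group of day 6 it did not. Of the 12 markers, 11 were above 1 FPKM in both WT and 12 in both Pcgf5-/- libraries at day 0, and 10 and 8 at day 6, and none was at 0 in a whole group. With day, 7 of them fell in WT and 8 in Pcgf5-/- cells past the threshold. Cdh11 fell past the threshold in Pcgf5-/- cells, whereas in WT, where the marker sum fell as well, its day effect was -0.16 (adjusted p = 0.793). At day 6 Lox was lower in Pcgf5-/- cells (-1.76, adjusted p = 0.0474) and the other 11 were not past it. The part of feeder cells in the Cdh11 result was not tested. For Cdh2, the WT day 6 libraries with 84.5 and 97.5 FPKM had lower fibroblast sums than any day 0 library. Its highest day 0 value, 6.09, was in the library with a sum of 857. The part of feeder cells in the Cdh2 values was not tested either.

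**Figure D3:**
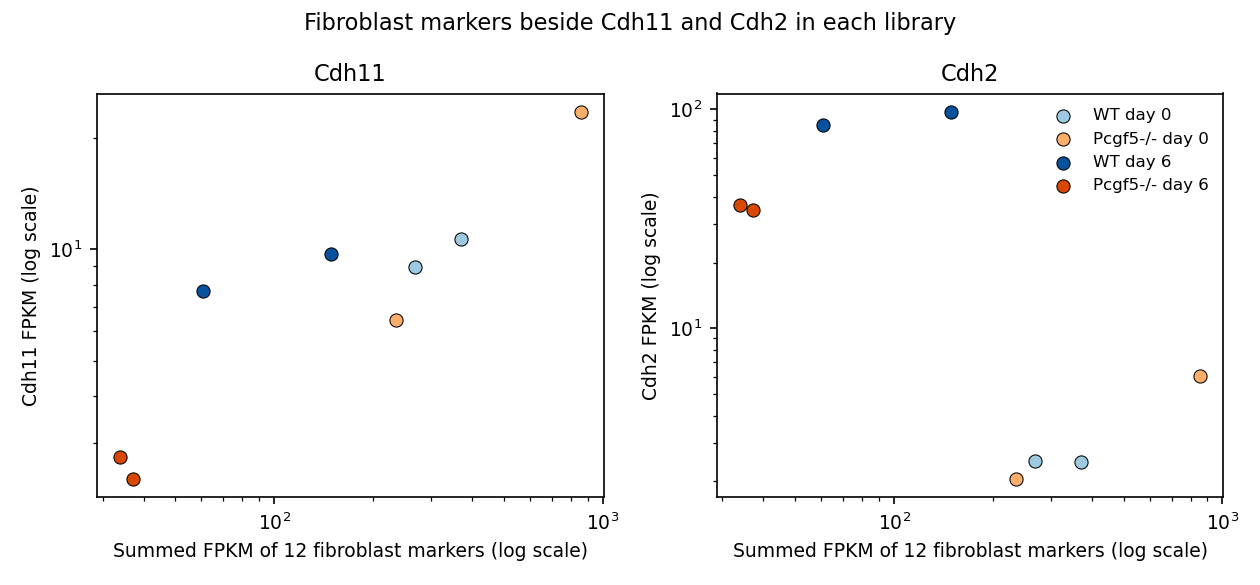
Summed FPKM of 12 fibroblast markers (horizontal axis, log scale) against the FPKM of Cdh11 (left) and Cdh2 (right; vertical axes, log scale), with a point for each of the 8 libraries, coloured by group. The Pcgf5-/- day 0 library with a marker sum of 857 had the highest Cdh11 (23.5) and the highest day 0 Cdh2 (6.09), and the Pcgf5-/- day 6 libraries were lowest in both the marker sum and Cdh11.

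Neural crest markers gave a mixed picture beside the crest-related cadherins Cdh6 and Cdh11. Of 8 tested, 4 rose and 3 fell with day in WT, and at day 6 Ednrb (-2.47, adjusted p = 0.00259) and Pax3 (-2.54, adjusted p = 0.00377), which also mark neural progenitors, were lower and Erbb3 (0.72, adjusted p = 0.0342) higher in Pcgf5-/- cells. Sox10, the defining crest gene, stayed at or below 0.161 FPKM in all libraries. The 9 markers summed to 74.2 and 92.5 FPKM in WT and to 33.7 and 25.6 in Pcgf5-/- cells at day 6. Most of the WT sum was Ednrb (48.5 and 58.0) and Pax3 (9.92 and 16.1). In Pcgf5-/- cells Ednrb was at 8.75 and 8.71 and Pax3 at 1.06 and 1.69. The sum therefore follows these genes rather than the list. Of the 8 tested, 5 were lower and 3 higher in Pcgf5-/- cells in direction. The part of these markers in the Cdh6 result was not tested. Markers of primitive endoderm, another epithelial cell type that mESC cultures can form, summed to 200 and 36.8 FPKM in WT and 46.9 and 20.2 in Pcgf5-/- cells at day 6. Between the genotypes at day 6 limma called 0 of 7 tested, with 0 at an unadjusted p under 0.05. All 7 were lower in Pcgf5-/- cells in direction. The WT replicates lay far apart, with the higher sum in replicate 1, so the test could miss a difference.

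Counted over the members, 5 passed the test between the genotypes at day 6, Cdh1, Cdh3 and Epcam higher and Cdh2 and Cdh6 lower in Pcgf5-/- cells, where 16.6% of all tested genes passed. Both Pcgf5-/- libraries lay above or below both WT libraries for 7 of the 8 tested members at that day (3 above and 4 below), against 62.2% of the tested genes. At day 0 limma called 0 of 8, with 1 (Epcam) at an unadjusted p under 0.05, where 0.333% of all genes were called, and the libraries of the genotypes were apart for 2 of the 8, Epcam and Cdh20, against 47.9% of genes. Over the days, 7 members passed in WT (background 50.5%) and 6 in Pcgf5-/- cells (background 32.3%), and the days were apart for 7 of the 8 in WT (77.6% of genes) and for 8 of the 8 in Pcgf5-/- cells (68.4%). Cdh3 and Cdh6 passed the test of the difference between the days, which 3.09% of genes passed. The day counts include Cdh4, Cdh6 and Cdh20, which were selected for their day 6 level. All members were chosen with earlier results of these data known. None of these counts, between the genotypes or over the days, is therefore evidence about the members as a group. The median genotype effect at day 6 was -0.40 over the 8 tested members and 0.02 over all genes, from members that moved in both directions.

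**Figure D4:**
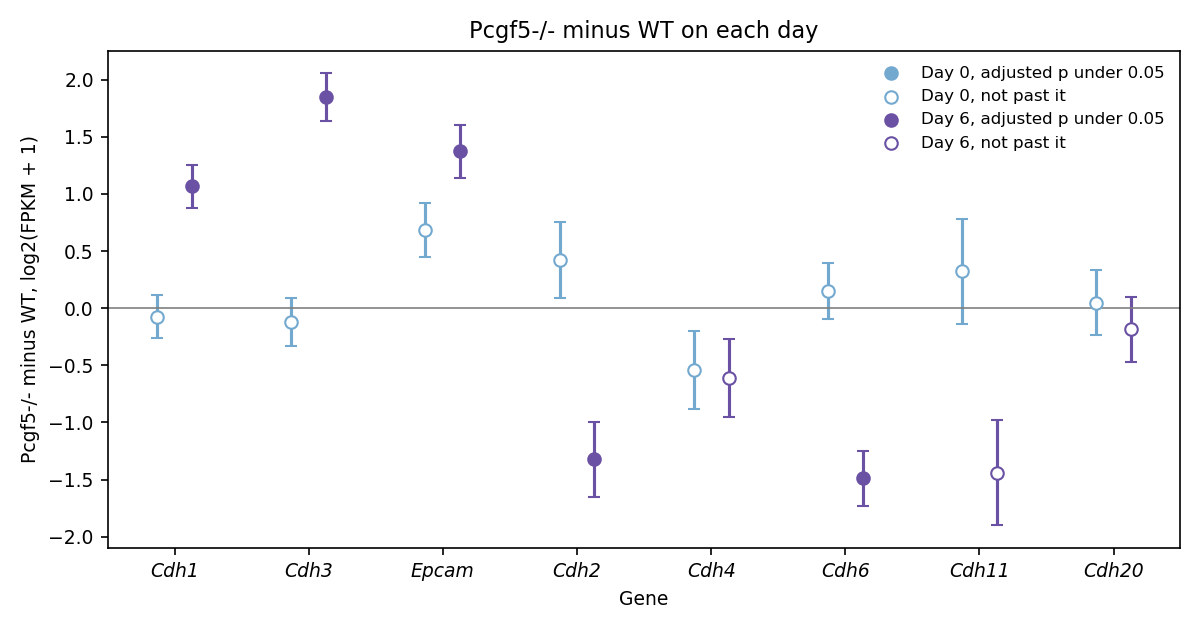
Pcgf5-/- minus WT on the log2(FPKM + 1) scale (vertical axis) for the 8 tested members at day 0 and day 6, as the estimate with its standard error and filled where the adjusted p was under 0.05. At day 0 no point was filled, and at day 6 Cdh1, Cdh3 and Epcam lay above 0 and Cdh2 and Cdh6 below it.

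**Figure D5:**
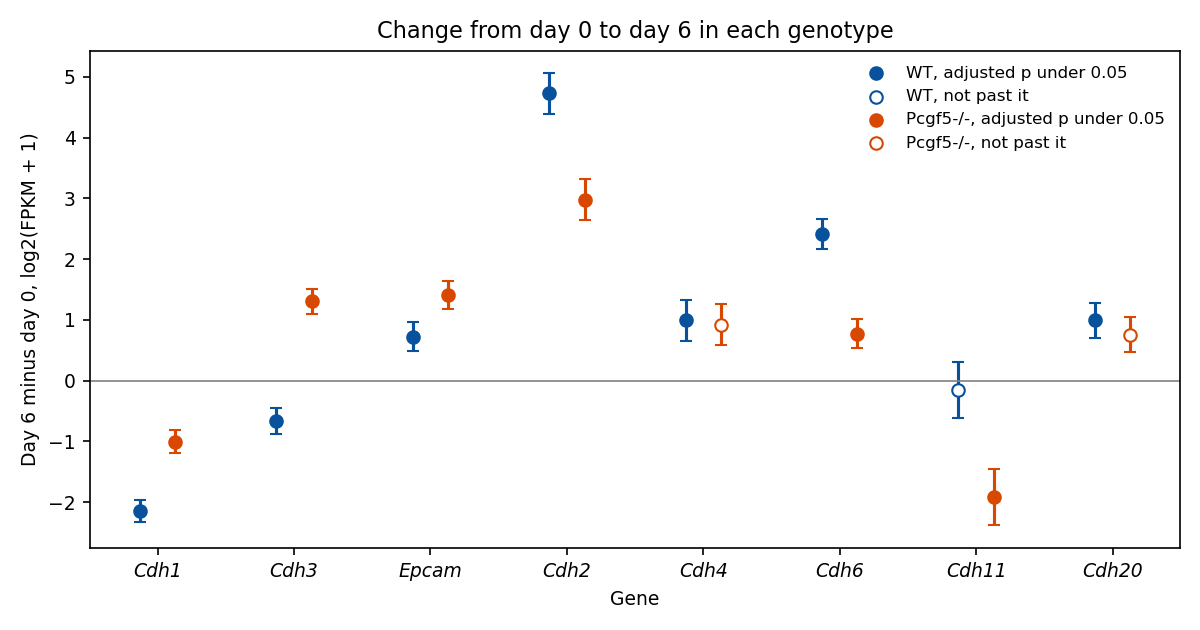
Day 6 minus day 0 on the log2(FPKM + 1) scale (vertical axis) for the 8 tested members in WT and in Pcgf5-/- cells, as the estimate with its standard error and filled where the adjusted p was under 0.05. Cdh3 lay on opposite sides of 0 in the genotypes, at -0.67 and 1.30, and Cdh2 was the highest point in each, at 4.73 and 2.98.

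In rank order within a group, Cdh1 was followed by Epcam, Cdh11, Cdh3 and Cdh2 at day 0 in both genotypes, with Epcam and Cdh11, and Cdh3 and Cdh2, overlapping in Pcgf5-/- cells and each neighbour apart in WT. At day 6 the WT order was Cdh2, Cdh1, Epcam, Cdh11, Cdh6, Cdh3, Cdh4 and Cdh20, each apart from the next. The Pcgf5-/- order was Cdh1, Epcam, Cdh2, Cdh3, Cdh11, Cdh4, Cdh6 and Cdh20, in which Cdh1 and Epcam overlapped, as did Cdh4 with Cdh6 and Cdh6 with Cdh20.

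Of 10 tested catenins and junction linkers, 1 was higher and 3 were lower in Pcgf5-/- cells at day 6, and 0 were called at day 0 by limma, with 3 at an unadjusted p under 0.05. Over all tested genes, 9.57% were higher and 7.05% lower at day 6, and 0.333% were called at day 0. The catenins that every adherens junction uses did not pass: β-catenin (Ctnnb1) differed by -0.28 (SE 0.12, adjusted p = 0.144), αE-catenin (Ctnna1) by -0.0034 (SE 0.11, adjusted p = 0.989) and p120-catenin (Ctnnd1) by -0.04 (SE 0.11, adjusted p = 0.836). Plakoglobin (Jup), which links cadherins in epithelia and desmosomes, was at 10.97 and 9.57 FPKM in WT and 32.1 and 24.9 in Pcgf5-/- cells at day 6, a difference of 1.38 (SE 0.16, adjusted p = 0.00393). Jup lies on chromosome 11, whose genes had a median genotype effect of 0.38 at day 6 against 0.02 over all genes. At day 0 these medians were 0.48 and 0.11.

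The 3 lower genes were Ctnnd2, Ctnna2 and Arvcf. αN-catenin (Ctnna2), which serves N-cadherin in neurons, was at 5.50 and 5.05 FPKM in WT and 1.89 and 1.59 in Pcgf5-/- cells at day 6 (-1.20, adjusted p = 0.00648). It lies on chromosome 6, where the median genotype effect was 0.37 at day 6 and 0.41 at day 0. δ-catenin (Ctnnd2), the neural p120 relative, was at 6.14 and 6.45 against 1.46 and 1.45 (-1.57, adjusted p = 0.00393). Arvcf, another p120 relative, was at 18.9 and 23.7 against 9.67 and 13.6 (-0.83, adjusted p = 0.0251). For Ctnna2 (-1.20, adjusted p = 0.0435), Ctnnd2 (-1.16, adjusted p = 0.0480) and Arvcf (-1.28, adjusted p = 0.0491) the genotype effect also differed between the days. Ctnna2 was at or below 0.0657 FPKM in every day 0 library, where the log2(FPKM + 1) scale leaves little room for a difference. Jup fell with day in both genotypes, by 1.56 in WT (adjusted p = 0.000145) and by 0.63 in Pcgf5-/- cells (adjusted p = 0.0188), as Cdh1 did.

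Of 6 tested transcription factors known to repress Cdh1, 3 rose with day in WT, namely Zeb2, Zeb1 (0.81, adjusted p = 0.0426) and Twist1 (1.26, adjusted p = 0.00825), and Snai1 and Twist2 (-1.74, adjusted p = 0.00957) fell. Over all tested genes, 34.2% rose and 16.2% fell with day in WT. Zeb2 was at 0.752 and 0.629 FPKM in WT at day 0 and at 14.0 and 15.2 at day 6, and in Pcgf5-/- cells it went from 0.467 and 1.78 to 6.47 and 4.70. Its rise was 3.21 (adjusted p = 9.32e-05) in WT and 1.69 (adjusted p = 0.00454) in Pcgf5-/- cells, and at day 6 it was lower in Pcgf5-/- cells (-1.26, SE 0.30, adjusted p = 0.0272). Between the genotypes at day 6 Zeb1 differed by -0.85 (SE 0.29) without passing (adjusted p = 0.0768). Snai1 fell with day, by 0.81 in WT (adjusted p = 0.0344) and by 1.60 in Pcgf5-/- cells (adjusted p = 0.00352), and Snai2 had adjusted p-values of 0.0964 and 0.109 for its day effects. Neither Snai1 (-0.46, adjusted p = 0.277) nor Snai2 (0.10, adjusted p = 0.828) was called between the genotypes at day 6. Zeb2 was the only 1 of the 6 called between the genotypes at day 6, a share near the 16.6% of all tested genes called.

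Epithelial genes at large did not follow Cdh1, Cdh3 and Epcam. Of 18 tested tight junction, desmosome, keratin and epithelial regulator genes, limma called 0 between the genotypes at day 6, with 5 at an unadjusted p under 0.05, and 0 at day 0, with 3. Cldn6 was at 24.8 and 19.6 FPKM in WT and 7.41 and 14.0 in Pcgf5-/- cells at day 6 (-1.04, SE 0.48, adjusted p = 0.177) and Cldn7 at 7.999 and 6.82 against 4.47 and 11.2 (-0.03, SE 0.65, adjusted p = 0.980). With day, 7 of the 18 rose and 1 fell in WT, where 34.2% of all tested genes rose and 16.2% fell. The largest rises were those of Krt18 (4.37, adjusted p = 9.58e-05), Cldn6 (2.55, adjusted p = 0.00292), Krt8 (2.42, adjusted p = 0.0108) and the splicing regulator Esrp1 (2.08, adjusted p = 0.000618), and the desmosomal cadherin Dsg2 fell (-2.85, adjusted p = 1.95e-05). In Pcgf5-/- cells 3 rose and 2 fell, where 21.9% of all tested genes rose and 10.4% fell. The number that rose in each genotype lay near the share over all genes. The rises named above, in WT while Cdh1 fell, are thus not a result about epithelial genes as a group.

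Nectins (Pvrl genes in the files) and afadin, an immunoglobulin-type adhesion system of the same junctions, were not called between the genotypes: limma called 0 of 4 tested at day 6, with 0 at an unadjusted p under 0.05. Of these, Pvrl3 (1.25, adjusted p = 0.00112), Pvrl1 (0.83, adjusted p = 0.0214) and Pvrl2 (0.51, adjusted p = 0.0259) rose with day in WT. Of the 11 further cadherins of the classical and related families 6 were tested. Cdh15 (M-cadherin, 0.78, adjusted p = 0.0225) and Cdh9 (0.90, adjusted p = 0.0235) were higher in Pcgf5-/- cells at day 6. Cdh15 was at 1.04 and 1.47 FPKM there, against 0.39 and 0.240 in WT. Cdh9 was at 1.72 and 0.918, against 0.286 and 0.171 in WT. Both genes passed the filter only through the Pcgf5-/- day 6 group, so a higher level in that group was built into their selection. Cdh10, Cdh22 and Cdh24 were higher at day 6 than at day 0 in both genotypes, by 2.01, 1.75 and 1.70 in WT and by 1.38, 1.27 and 0.95 in Pcgf5-/- cells. They passed the filter only through their day 6 levels, so a rise with day was built into their selection. At day 6 they differed between the genotypes by -0.42 (adjusted p = 0.257), -0.46 (0.153) and -0.68 (0.0908). For each of them both WT libraries of day 6 lay above both Pcgf5-/- libraries. Cdh10, Cdh22 and Cdh24 were thus lower in Pcgf5-/- cells at day 6 in direction but not past the threshold.

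Among 9 genes that cut or turn over cadherins and Epcam, Adam10, the sheddase of E- and N-cadherin, was at 31.5 and 28.4 FPKM in WT and 18.0 and 15.7 in Pcgf5-/- cells at day 6 (-0.79, adjusted p = 0.0137). St14 (matriptase), a protease that cuts Epcam, was higher (0.77, adjusted p = 0.0419), and so was its inhibitor Spint2 (0.85, adjusted p = 0.0347). At day 6, 2 of the 9 were higher and 1 was lower in Pcgf5-/- cells, against 9.57% and 7.05% of all tested genes. None of the 9 was called at day 0 by limma, with 1 at an unadjusted p under 0.05.

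The genes whose pattern over the 8 libraries was nearest to that of a member, by the root mean square difference of centred log2(FPKM + 1) values over 13214 genes, are given as a description. For Cdh1, whose own root mean square was 0.889, they were Gm29766 (0.126), Tmem45a (0.151), Lima1 (0.163), Rasa4 (0.165) and Gltscr1l (0.167). For Cdh2 (2.01) they were Dtx4 (0.271), Hoxb2 (0.275), Rtn1 (0.299), Sfrp2 (0.300) and Col2a1 (0.322). For Epcam (0.788) they were Gadd45a (0.139), Grb7 (0.191), 1700048O20Rik (0.214), Tdrd5 (0.220) and Psme2 (0.228).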

How the data were processed

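Per the labels and the paper's methods, the authors aligned paired-end reads to build mm9 with TopHat2 2.0.4 and computed FPKM per gene with Cufflinks 2.1.1, and deposited 1 FPKM table per library. The annotation is not given in the sources used here. FPKM values do not tell the number of fragments behind them. The deposited lower and upper bounds of each FPKM are not printed, since 1074 to 1347 values per library lay outside their own bounds. From steps in the low values the deepest library had 1.338 times the depth of the shallowest. Between 11031 and 12097 genes exceeded 1 FPKM per library.

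Values were analysed as log2(FPKM + 1), which understates changes of low genes, in limma 3.58.1 (R 4.3.3) with a variance trend and 1 mean per group over all 8 libraries. Genes entered where the mean FPKM of some group exceeded 1. The fit was tested on simulated data with 200 changed genes. Tables were handled in Python 3.11.15 with pandas 2.3.3 and numpy 2.4.6. Promoters came from RefSeq (GRCm38.p6), with 4 of 10 members matched.

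The members and lists were chosen with earlier results of these data known. All members are named. Of other lists, up to 4 genes per direction past the threshold in a comparison are named, plus Ctnnb1, Ctnna1, Ctnnd1, Snai1, Snai2, Zeb1, Zeb2, Cldn6 and Cldn7. Tie1, Emcn, Erg, Tek, Kdr, Sox10 and 1 promoter motif were chosen after values were seen. The labels call the replicates biological but name no separate cultures, so p-values measure the spread between these libraries. Alternatives were other pseudocounts, filters and scalings, a replicate block, fits of the compared groups only, no trend, no genes of chromosomes 6 and 11, and each library left out. The median genotype effects of chromosomes 6 and 11 stood above that of all genes on both days.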

Additional observations from a re-analysis of the deposited data

Results flagged for a closer look

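The genotype effect of 2 members differed between the days by the test of the difference itself. For Cdh3 the effect on log2(FPKM + 1) was -0.12 at day 0 and 1.85 at day 6, a difference of 1.97 (SE 0.29, adjusted p = 0.0269). For Cdh6 it was 0.15 at day 0 and -1.49 at day 6, a difference of -1.64 (SE 0.34, adjusted p = 0.0484). Cdh6 was below 0.35 FPKM in every day 0 library, where the log2(FPKM + 1) scale leaves little room for a difference. Both tests were lost when some of the libraries were left out: the adjusted p was between 0.0582 and 0.152 for Cdh6 over all 8 leave-outs, and for Cdh3 it was 0.0709 without WT day 6 replicate 2, 0.0640 without Pcgf5-/- day 6 replicate 2, and 0.0953 to 0.104 without WT day 0 replicate 2, Pcgf5-/- day 0 replicate 2 or Pcgf5-/- day 6 replicate 1. Without a filter on low values it was 0.0563 for Cdh3 and 0.0939 for Cdh6, which also missed the threshold with a pseudocount of 0.1 (0.110) or median centring (0.0580).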

How the results depend on the processing

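Over the 732 values of single members under an alternative, 636 kept their direction and their side of the threshold, 67 kept the direction but were no longer past it, 16 newly passed and 13 changed sign. The 5 members called between the genotypes at day 6 became 2 to 6 with a library left out, and 0 were called at day 0 under every alternative run. The 7 called over the days in WT became 4 with a mean FPKM over 5, 4 with median centring and 4 to 7 with a library left out. Of the 2 called for the difference between the days, 1 was left with a pseudocount of 0.1, 1 with a mean FPKM over 5 (a filter that Cdh6 does not pass), 0 without a filter and 0 to 3 with a library left out. Called genes among all tested ranged from 334 to 3235 (2197 in the reported fit) between the genotypes at day 6, from 0 to 282 (44) at day 0, from 4726 to 7672 (6668) over the days in WT, from 2429 to 5533 (4271) in Pcgf5-/- cells, and from 4 to 1167 (408) for the difference between the days. Signs changed only for values not past the threshold. At day 0, with a library left out, the genotype effect ranged from -0.34 to 0.19 for Cdh1, from -0.19 to 1.03 for Cdh2, from -0.33 to 0.085 for Cdh3, from -1.13 to 0.052 for Cdh4 and from -0.54 to 1.18 for Cdh11, and that of Cdh20 was -0.10 with median centring. The ends of these ranges came from WT day 0 replicates 1 and 2 for Cdh1, Cdh3 and Cdh4 and from Pcgf5-/- day 0 replicates 1 and 2 for Cdh2 and Cdh11. At day 6 Cdh20 ranged from -0.59 to 0.22, without Pcgf5-/- day 6 replicate 2 and 1. All ranges of Cdh20 lack the leave-out of WT day 6 replicate 2, without which it failed the filter. For the difference between the days Cdh20 ranged from -0.64 to 0.17, and Cdh4 from -0.66 to 0.52, with 0.32 at a pseudocount of 0.1, 0.035 with quantile normalization and 0.11 with median centring. The log2 ratio of Cdh2 to Cdh1, Pcgf5-/- minus WT at day 0, was 0.59 and ranged from -0.25 to 1.44 with a library left out, and its rise with day in Pcgf5-/- cells ranged from 3.51 to 5.20. Apart from what the settings themselves take away, the causes were not tested. With the replicate block the calls between the genotypes stayed at 5 members at day 6, Cdh1 newly passed for the difference between the days (adjusted p = 0.0386, and 0.0323 with a replicate block for each day) and Cdh6 did not (0.0520). The numbers were not shown to pair the libraries: the labels do not say that they do, and the differences between replicates 1 and 2 of WT and Pcgf5-/- correlated across genes at 0.387 at day 6 and 0.102 at day 0, against -0.077 to -0.022 for the other pairs of groups. Leaving out libraries was run for the members only, not for the partner lists. A group left with 1 library was taken to vary like the other groups. With 2 libraries per group, the shared spread limits what the fit can call.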
